A study of Mus musculus with 48 samples.

Results

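Spleen B cells of mice with collagen-induced arthritis (CIA) and of healthy mice are described here from single-cell RNA sequencing by Seq-Well, in which each cell shares a microwell with a barcoded bead. The cells were chosen by the deposited cell annotation, which assigns each cell a type by its correlation with sorted reference populations, and no measured value was used beyond that label. They were 1182 of 3320 annotated spleen cells and of 12096 annotated cells in all, and of 1372 annotated B cells over the analysed organs. All mice were young adult males of the inbred strain DBA1/J. The 4 healthy mice (H3, H4, H6 and H7) had an arthritis score of 0. The 6 CIA mice had been injected intradermally at the tail base with 100 µg of bovine collagen II in Complete Freund's Adjuvant and boosted on day 20 with collagen in incomplete adjuvant. S1, S2 and S3 had a score of 8 and are called severe, while S5 (4 to 5), S6 (3 to 4) and S8 (2 to 3) are called mild. The healthy mice were controls that, per the study's methods, had been given phosphate-buffered saline by the same route. No group received adjuvant alone, so collagen and adjuvant cannot be told apart. H3 and the severe mice belonged to the experiment labelled 2CIA, and the other mice to the one labelled CIA. Severity and experiment therefore cannot be told apart among CIA mice. Organs had been frozen and thawed, and spleen suspensions had been treated with red blood cell lysis buffer.

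B cells carry a membrane antibody, the B cell receptor, whose signal passes through the Cd79a and Cd79b chains and is tuned by coreceptors such as Cd22. Spleen B cells are mostly follicular cells, which recirculate and carry IgM with IgD, and marginal zone cells, which stay at the border of the white pulp. After activation by antigen and T cell help they present peptides on MHC class II, may pass through germinal centres, switch antibody class and become plasma cells, which fill with immunoglobulin transcripts and the joining chain Jchain. CIA depends on antibodies to collagen II, so the state of these cells is of interest in this model.

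The B cells numbered 61, 275, 62 and 122 in H3, H4, H6 and H7 and 118, 127, 24, 161, 75 and 157 in S1, S2, S3, S5, S6 and S8. Their counts are unique molecular identifiers (UMIs), each of which stands for 1 captured transcript. The cells held 413 to 2473 UMIs, with medians per mouse of 528 to 656, and the sums per mouse ran from 13732 in S3 to 205093 in H4. Levels are given as UMIs per 1000000 UMIs of the same mouse's B cells (CPM), and 1 UMI was thus worth far more CPM in S3 than in H4. Of the B cell barcodes, 15 also occurred in a library of another organ. Of these, 14 were in S8, whose spleen shared 36 of its 324 barcodes with its limb muscle library of 285 cells. Leaving these B cells out left the counts of called genes given below as they were (0 and 2), and the S8 B cell share was 55.2% instead of 53.6%.

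The label was checked against the defining markers Ms4a1 (CD20; chr19:11249675-11266241, minus strand), Cd22 (chr7:30865402-30880342, minus strand) and Cd79a (chr7:24897381-24902197, plus strand; all GRCm38). A UMI of at least 1 of the 3 was found in 63.0% of the B cells. After thinning each cell to 400 UMIs the share was 50.7% in B cells, 16.2% in T cells, 14.6% in erythrocytes and 7.76% in granulocytes, which should lack them, at median depths of 587.5, 793, 839 and 934 UMIs. The thinned share was 22.4% in dendritic cells, 14.0% in NK cells and 11.9% in monocytes. The B cell share thus lay above those of all these labels. Among the B cells, 437 had none of the 3 markers, 445 had 1, 234 had 2 and 66 had all 3. The share with a marker was highest in H4 (76.4%) and lowest in S3 (33.3%), so the 24 cells of S3 carried the label on fewer markers than those of the other mice.

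Ms4a1 stood at 783, 956, 899 and 524 CPM in H3, H4, H6 and H7 and at 218 to 1213 CPM in the CIA mice, with a median of 781. Cd22 stood at 211, 590.0, 413 and 564 CPM in the same healthy mice and at 341 to 729 CPM in CIA, with a median of 433. Cd79a stood at 572, 809, 680.2 and 511 CPM in healthy and at 218 to 788 CPM in CIA, with a median of 545. The groups overlapped for all 3 markers, and the lowest Ms4a1 and Cd79a values were those of S3, at 3 UMIs each. The log2 fold changes, CIA over healthy, were -0.05 (SE 0.36) for Ms4a1, 0.02 (SE 0.35) for Cd22 and -0.23 (SE 0.33) for Cd79a. All had an adjusted p of 0.999 by edgeR's quasi-likelihood test, and the sign of each turned under some alternative settings.

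The share of B cells among the annotated cells of each spleen asks whether the make-up of the suspension differed. B cells made up 37.0%, 55.9%, 46.6% and 56.2% in H3, H4, H6 and H7. They made up 44.8%, 50.3% and 53.6% in the mild mice S5, S6 and S8, and 26.4%, 13.9% and 15.6% in the severe mice S1, S2 and S3. The mild values lay among the healthy ones, and all severe values lay below the lowest healthy value. Over all mice the mean was 48.9% ± 9.13 (SD, n = 4) in healthy and 34.1% ± 17.7 (SD, n = 6) in CIA, a difference of -14.8 percentage points (two-sided exact permutation test, p = 0.181, adjusted p = 0.603 over 5 shares). The smallest p that 4 against 6 mice allow is 0.00952. Within the experiment CIA the difference was -3.32 points with 3 mice a group (exact p = 0.5, smallest possible 0.1), and the experiment 2CIA had 1 healthy mouse. The mean was 18.6% ± 6.77 in severe and 49.6% ± 4.42 in mild mice, with exact p = 0.1, the smallest 3 against 3 allow. A share falls when B cells are fewer or other cells more, and the 2 cannot be told apart here. Granulocytes made up 10.5%, 16.1% and 14.3% of the spleen cells in S1, S2 and S3 and at most 3.36% in the other mice.

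**Figure D1:**
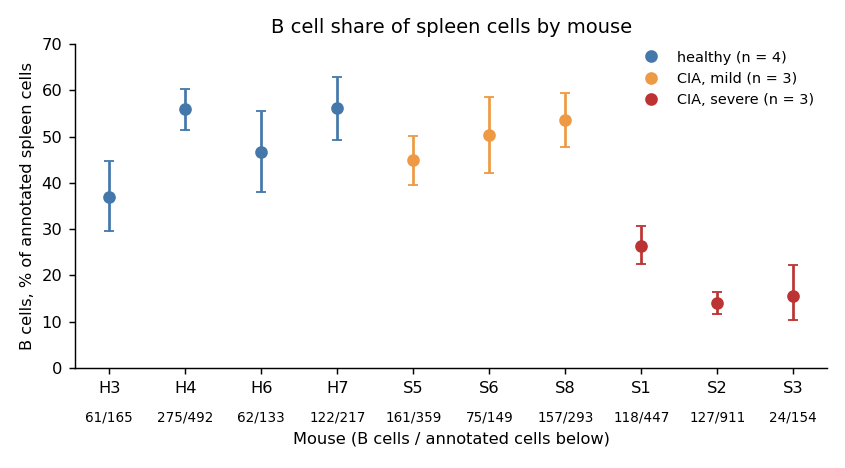
B cells as a percent of all annotated spleen cells of each mouse (points), with exact 95% binomial intervals that cover counting error only and the cell numbers below. The 3 severe mice sit at 13.9% to 26.4%, below the 37.0% to 56.2% of the healthy mice, while the 3 mild mice sit at 44.8% to 53.6%.

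CIA was then compared with healthy mice gene by gene in the UMI sums of B cells per mouse. Of 1252 genes that passed the filter on low counts, none had an adjusted p under 0.05 by edgeR (0%). At an unadjusted p under 0.05, 13 genes were higher in CIA (1.04%) and 27 lower (2.16%), and the median log2 fold change over all genes was -0.00. DESeq2 on the same genes called 4 (S100a8, Ifi27l2a, Ngp and Camp), and limma on means over cells called 2. The B cells of all CIA mice lay above those of all healthy mice for 6 genes (0.479%), namely Camp, Hnrnpa0, Ifi27l2a, Ngp, S100a8 and Tram1, and below them for 8 (0.639%), namely Fam49b, Pfdn1, Rabac1, Snord118, Sri, Stk17b, Tm9sf3 and Trbc2.

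Interferons act on nearly all cells and switch on a shared set of genes. Ifi27l2a (chr12:103442167-103443680, minus strand, GRCm38), an interferon-induced gene, stood at 301, 146, 72.9 and 249 CPM in H3, H4, H6 and H7. In CIA it stood at 510 (S3), 608 (S6), 649 (S8), 737 (S5), 1087 (S1) and 1390 (S2) CPM. Every CIA mouse lay above every healthy mouse, and the means were 192 ± 102 and 830 ± 338 CPM. The log2 fold change was 2.15 (SE 0.44, edgeR adjusted p = 0.10), and over 23 alternative fits it ran from 1.80 to 3.07 with adjusted p from 0.000631 to 0.853. DESeq2 and limma called the gene, as did the edgeR fit of every gene with a UMI (adjusted p = 0.00398) and that of B cells with a B cell marker UMI. At 400 UMIs a cell, Ifi27l2a was found in 6.54% of healthy and 27.5% of CIA B cells, beside 7.10% and 28.8% of NK cells, 7.84% and 10.0% of erythrocytes and 6.40% and 53.9% of monocytes. The CIA share of B cells was close to that of NK cells, and it stood between erythrocytes and monocytes. The part of RNA released from other cells in this value was not tested.

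The list of 22 interferon response genes was mostly too sparse for the filter, and 3 genes were tested (Ifi27l2a, Ifi203 and Irf1). At an unadjusted p under 0.05, 1 of them was higher and none lower (over all genes 1.04% and 2.16%). Their median log2 fold change was 0.89 beside -0.00 over all genes. Summed over the list, the B cells of H3, H4, H6 and H7 held 843, 599.7, 656 and 799 CPM. Those of the CIA mice held 1456 (S3), 1555 (S6), 1639 (S8), 1799 (S5), 2595 (S2) and 2646 (S1) CPM. The lowest CIA sum was above the highest healthy sum. Without Ifi27l2a the sums were 453 to 583 CPM in healthy and 947 to 1560 CPM in CIA, so the other genes together showed the same separation. In the other annotated cells of the same spleens the full list summed to 796 to 1462 CPM in healthy and 1930 to 3808 CPM in CIA. The CIA sums thus lay above the healthy ones in B cells and in the rest of the spleen. Of 8 list genes tested for a difference in the CIA effect between B cells and the rest, none had an unadjusted p under 0.05. Over all genes of that fit 2.56% were higher and 3.98% lower.

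Single members rested on few UMIs. Irf7, the factor that amplifies interferon production, stood at 30.1, 24.4, 48.6 and 13.1 CPM in H3, H4, H6 and H7 and at 53.2 to 209 CPM in CIA, with 54 UMIs in all. Its lowest CIA value was above its highest healthy value. Ly6a (Sca-1), an interferon-induced surface protein, had 11 UMIs in healthy and 62 in CIA B cells, and Xaf1 had 3 and 27. In the edgeR fit of every gene with at least 1 UMI, 17 list genes had a healthy UMI. Of these, 15 had a positive log2 fold change, with a median of 1.117, and 7 were higher and 0 lower at an unadjusted p under 0.05 (Ifi27l2a, Ifit3, Irf7, Usp18, Ly6a, Xaf1 and Mx1). Over all 18053 genes of that fit the shares were 2.44% higher and 2.21% lower. That fit kept genes with as few as 1 UMI, so these shares are not a like-for-like background. Ifit3, Usp18, Mx1 and Xaf1 had at most 3 healthy UMIs and entered mainly through the CIA mice, so the count is a description only. Ifit1 and Ifi44 had no healthy UMI and 6 and 5 CIA UMIs. Their pooled CIA levels were 1.66-fold and 1.38-fold of a floor of 3 counts over the healthy group. These values leave out the counting error of the CIA UMIs and the spread between mice, so they are not lower limits. With both genes at these values the median was 1.08.

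Promoters of 15 of the 22 genes, Ifi27l2a not among them, were in the RefSeq table used here (GRCm38.p6), and their 250 bases before the start were searched on both strands for GAAANNGAAA, the core of the interferon-stimulated response element. Of these genes, 7 held a match and 4 held 2 or more, while of all 32851 promoters 2.98% held a match and 0.180% held 2 or more. The windows of the 4 genes with several matches are shown, since few promoters hold more than 1. Capitals mark the letters of each match (GAAA, or TTTC where the match lies on the other strand), and sequences read in the direction of the gene.
Isg15, chr4:156200855-156200916, minus strand, 3 overlapping matches: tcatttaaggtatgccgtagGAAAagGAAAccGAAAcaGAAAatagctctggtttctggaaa
Bst2, chr8:71537567-71537622, minus strand, 2 overlapping matches: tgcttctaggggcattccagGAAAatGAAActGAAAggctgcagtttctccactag
Ifit1, chr19:34640765-34640833, plus strand, 2 matches: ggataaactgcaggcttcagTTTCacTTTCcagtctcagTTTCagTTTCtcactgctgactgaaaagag
Ifit3, chr19:34583353-34583436, plus strand, 2 matches: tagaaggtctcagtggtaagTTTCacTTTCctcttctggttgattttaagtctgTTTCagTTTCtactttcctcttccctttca
In healthy and CIA B cells, Isg15 had 14 and 34 UMIs, Bst2 had 7 and 23, Ifit1 had 0 and 6, and Ifit3 had 2 and 16. Ifit1 and Ifit3 encode RNA-binding proteins that limit viral translation, Bst2 tethers budding virus, and Isg15 is a ubiquitin-like modifier. A match describes the letters only.

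**Figure D2:**
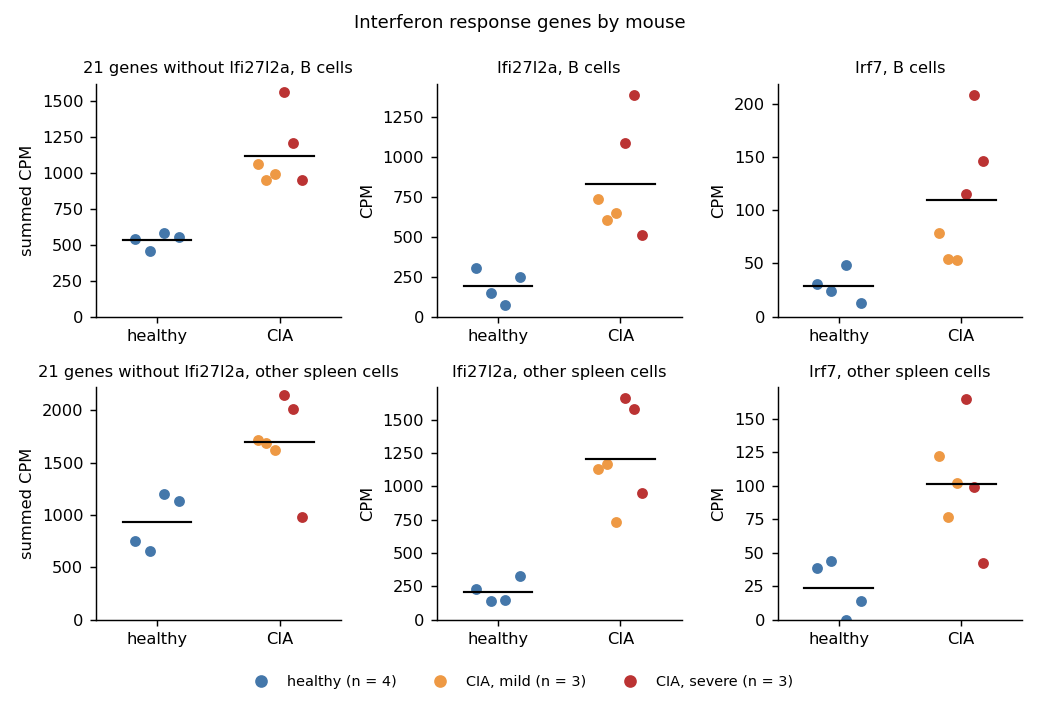
Interferon response genes in B cells (top row) and in all other annotated spleen cells (bottom row), as CPM of each mouse (points) with the group mean (line). In B cells all 6 CIA mice lie above all 4 healthy mice for the 21 genes summed without Ifi27l2a (947 to 1560 against 453 to 583 CPM), for Ifi27l2a (510 to 1390 against 72.9 to 301 CPM) and for Irf7 (53.2 to 209 against 13.1 to 48.6 CPM).

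The gene with the smallest p-value marks granulocytes. S100a8 (chr3:90668978-90670035, plus strand), a subunit of the calprotectin of neutrophil cytosol, stood at 632, 702, 559 and 1009 CPM in the B cells of H3, H4, H6 and H7. It stood at 1533 (S8), 2163 (S5), 2181 (S6), 6394 (S2), 7824 (S1) and 16458 (S3) CPM in CIA. The groups did not overlap, and the log2 fold change was 3.01 (SE 0.61, edgeR adjusted p = 0.10; over 23 alternatives, 1.29e-08 to 0.638). Its partner S100a9 had a log2 fold change of 2.11 (SE 0.66, edgeR adjusted p = 0.550), and its groups overlapped. Ngp and Camp, granule proteins made by immature neutrophils, had log2 fold changes of 4.27 (SE 0.94) and 3.03 (SE 0.72) with edgeR adjusted p-values of 0.130 and 0.191, on 95 and 125 UMIs in all.

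Of the 9 granulocyte markers, the 4 named above were tested, and each was higher at an unadjusted p under 0.05 (over all genes 1.04%). Their median log2 fold change was 3.02 beside -0.00 over all genes. Ngp had 4 healthy and 91 CIA UMIs and Camp 12 and 113, so both reached the filter on low counts through the CIA mice, and the count and the median are given as a description only. The summed list stood at 850 to 1573 CPM in healthy and 2118 to 22866 CPM in CIA B cells. In the other spleen cells it stood at 5460 to 31661 and 29636 to 147820 CPM. Mmp9, a defining marker of mature neutrophils, was at 0 in the B cells of all mice. The 8 other markers all had a positive log2 fold change in the edgeR fit of every gene, where 8877 of all 18053 genes were positive. That fit kept genes with as few as 1 UMI, so this is not a like-for-like background. A marker found mainly in CIA cells is positive there by its counts, so the signs are a description only. At 400 UMIs a cell, S100a8 was found in 17.1% of healthy and 67.2% of CIA B cells. The shares were 14.0% and 76.8% in T cells, 18.9% and 69.9% in NK cells and 19.6% and 82.9% in erythrocytes, all at like or greater median depth. In CIA the B cell share lay below those of all 3 labels, which should lack the gene, and in healthy mice it lay within their range, so no expression of S100a8 by B cells is read from these shares. The part of RNA from other cells in the B cell values was not tested.

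**Figure D3:**
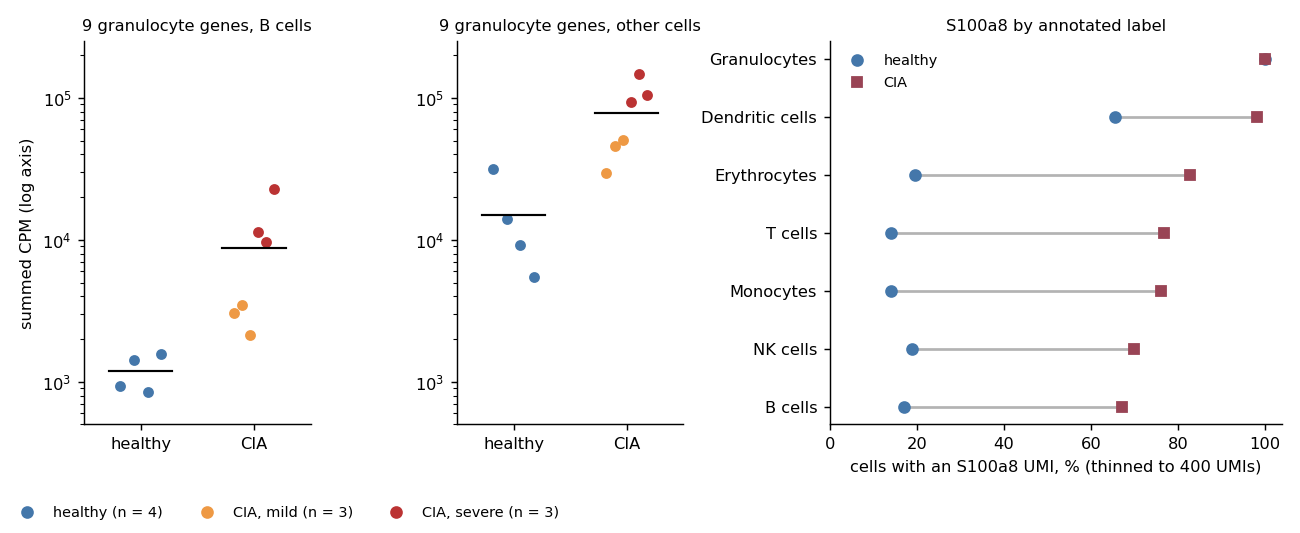
Granulocyte transcripts. Left and middle, the summed CPM of 9 granulocyte genes per mouse (points, log axis; line, group mean) in B cells and in other spleen cells; right, the share of cells of each label with an S100a8 UMI after thinning to 400 UMIs, for labels with at least 10 cells in both groups. The S100a8 share moved from 17.1% to 67.2% in B cells and from 14.0% to 76.8% in T cells.

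Among B cell subset genes, none had an adjusted p under 0.05 by edgeR between CIA and healthy. Of the 16 B cell identity genes, 13 were tested, none in either direction at an unadjusted p under 0.05, with a median log2 fold change of -0.14. Ly6d, an early and lasting B lineage surface protein, stood at 437 to 1204 CPM in healthy and 291 to 1216 CPM in CIA. The identity genes summed to 4849 to 7182 CPM in healthy and 5113 to 6545 CPM in 5 CIA mice, and to 2622 CPM in S3. They summed to 1034 to 2455 CPM in the other spleen cells.

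Of the 10 follicular genes, 8 were tested, and 1 was lower and 0 higher at an unadjusted p under 0.05 (over all genes 2.16% and 1.04%), with a median log2 fold change of -0.48 beside -0.00 over all genes. That gene was S1pr1 (chr3:115710433-115715072, minus strand), the sphingosine 1-phosphate receptor that leads lymphocytes out of lymphoid organs. It stood at 391, 156, 340.1 and 249 CPM in H3, H4, H6 and H7. In CIA it stood at 106 to 218 CPM with a median of 122, the highest value being that of S3 at 3 UMIs. The groups overlapped through H4, and the log2 fold change was -1.05 (SE 0.36, edgeR adjusted p = 0.870; over 23 alternatives, 0.544 to 1.00). Klf2, the factor that drives S1pr1 in resting lymphocytes, stood at 572, 785, 462 and 459 CPM in healthy and 286 to 596 CPM in CIA, median 373. Foxp1 stood at 498 to 766 and 250 to 780 CPM, so that the ranges of both regulators overlapped. The IgD gene Ighd, the classical mark of mature follicular cells, stood at 241, 751, 364 and 210 CPM in healthy and at 291 to 703 CPM in CIA, median 388.

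Of the 11 marginal zone genes, 4 were tested, none at an unadjusted p under 0.05 in either direction, with a median log2 fold change of -0.22. Cr2 (CD21), the complement receptor high on marginal zone cells, stood at 301, 361, 267 and 105 CPM in healthy and 187 to 394 CPM in CIA, median 242. Plac8 stood at 406 to 1264 and 644 to 1575 CPM, and the chaperone Mzb1 at 364 to 783 and 218 to 591 CPM. All 3 overlapped between the groups.

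Rarer B cell states had few transcripts in either group. Of the 9 germinal centre genes none passed the filter and 3 had no UMI in any B cell. Bcl6, the master factor of germinal centre cells, had 26 UMIs over all 1182 cells. The germinal centre list summed to 24.3 to 91.7 CPM in healthy and 34.8 to 146 CPM in CIA. None of the 8 B-1 genes passed the filter. Bhlhe41, a transcription factor of B-1 cells, stood at 0, 19.5, 0 and 13.1 CPM in H3, H4, H6 and H7 and at 21.3 to 72.8 CPM in CIA. Every CIA mouse lay above every healthy mouse, but on 5 healthy and 13 CIA UMIs, with 1 to 3 UMIs in each CIA mouse, and in the edgeR fit of every gene its log2 fold change was 1.13 (SE 0.92, adjusted p = 0.649). Of the 10 immature and transitional genes Cd24a (heat stable antigen) alone was tested, at 72.9 to 361 CPM in healthy and 146 to 304 CPM in CIA. Of the age-associated genes Fcrla, an Fc receptor-like protein of the cytoplasm, was tested and stood at 144 to 211 and 0 to 255 CPM. None of the germinal centre, B-1 and age-associated genes had an adjusted p under 0.05 in either edgeR fit, and their low counts limit what could be detected.

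**Figure D4:**
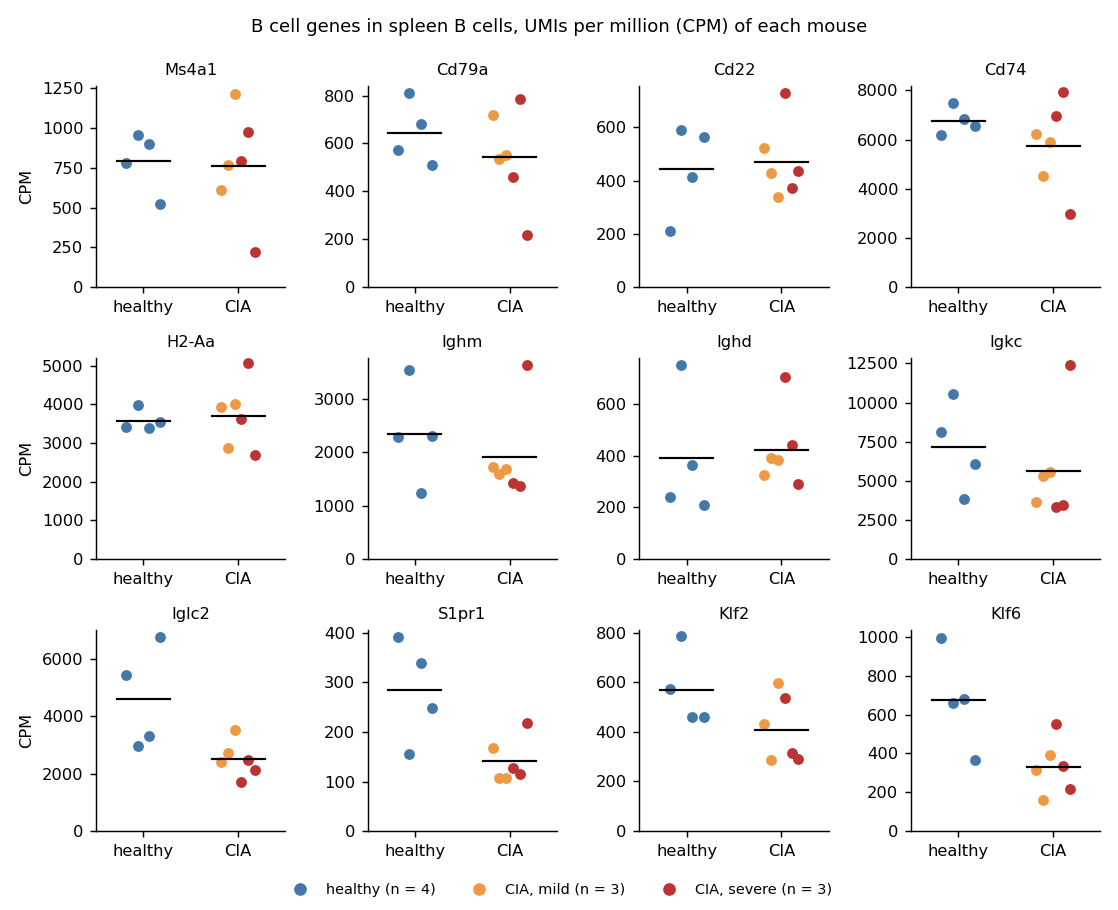
B cell genes as CPM of each mouse's spleen B cells (points) with the group mean (line). CIA and healthy overlap in every panel; S1pr1 (106 to 218 against 156 to 391 CPM) and Klf6 (161 to 550 against 367 to 993 CPM) overlap through H4 and H7 respectively.

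Activation of B cells by antigen quickly induces transcription factors of the Fos, Jun, Egr and Nr4a families. Of the 27 early activation genes, 19 were tested, and 3 were lower and 0 higher in CIA at an unadjusted p under 0.05 (Jun, Ier5 and Klf6; over all genes 2.16% lower and 1.04% higher), with a median log2 fold change of -0.34 beside -0.00 over all genes. Jun stood at 1204, 2418, 753 and 1232 CPM in H3, H4, H6 and H7 and at 483 to 1560 CPM in CIA, median 684. Klf6, a stress- and activation-induced zinc finger factor, stood at 993, 658, 680.2 and 367 CPM in healthy and 161 to 550 CPM in CIA, median 325. Ier5 stood at 219 to 572 and 72.8 to 313 CPM. All 3 overlapped between the groups, and the log2 fold changes were -0.89 (SE 0.41) for Jun, -1.01 (SE 0.38) for Klf6 and -0.91 (SE 0.41) for Ier5, each with an edgeR adjusted p of 0.999. Junb and Nfkbia, the inhibitor that closes NF-κB signalling, stood at 1730 to 3291 and 903 to 1263 CPM in healthy and 1448 to 3324 and 769 to 1789 CPM in CIA. In the other spleen cells the early activation list summed to 11142 to 13148 CPM in healthy and 5508 to 10838 CPM in CIA, without overlap, while in B cells the sums were 11284 to 16012 and 6579 to 15072 CPM. Of 23 list genes tested for a different effect in B cells, 1 was lower and 0 higher at an unadjusted p under 0.05. Over all genes of that fit the shares were 3.98% and 2.56%.

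Genes of receptor signalling and antigen presentation did not pass the test. Of the 20 receptor signalling genes 11 were tested (median log2 fold change -0.32), of the 15 MHC class II genes 10 (-0.25), of the 14 BAFF, survival and TNF family genes 5 (-0.29) and of the 12 homing receptor genes 4 (-0.29), none of them at an unadjusted p under 0.05 in either direction. Cd74, the invariant chain of MHC class II, stood at 6171, 7475, 6851 and 6540 CPM in healthy and at 2986 to 7924 CPM in CIA, median 6069, with the lowest value in S3. H2-Aa stood at 3377 to 3988 and 2694 to 5074 CPM. Syk, the kinase next to the receptor, stood at 223 to 346 CPM in healthy and 0 to 384 CPM in CIA, and Ltb, a lymphotoxin needed for follicle structure, at 331 to 510 and 146 to 585 CPM. Cxcr4, the receptor for Cxcl12, stood at 375 to 486 and 179 to 655 CPM. The groups overlapped for each of these genes. The receptor signalling list summed to 3310 ± 449 CPM (SD, n = 4) in healthy and 2840 ± 431 CPM (SD, n = 6) in CIA, with overlapping ranges. The 3 cell cycle genes and the 11 heat shock genes tested also had none at an unadjusted p under 0.05, with medians of -0.11 and -0.03.

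Immunoglobulin transcripts made up 1.37% of the UMIs of the median B cell. The 11 constant region genes summed to 18333, 18684, 10131 and 17667 CPM in the B cells of H3, H4, H6 and H7 and to 7363 to 20245 CPM in CIA, the highest being S3. Of 5 tested, Iglc2 and Iglc3 were lower and none higher at an unadjusted p under 0.05 (over all genes 2.16% and 1.04%), and the median log2 fold change was -0.47 beside -0.00 over all genes. Iglc2 (chr16:19198396-19200351, minus strand), a lambda light chain constant region, stood at 5449, 2964, 3304 and 6750 CPM in healthy and at 1713 to 3512 CPM in CIA, median 2454. The groups overlapped, and its log2 fold change was -0.91 (SE 0.26, edgeR adjusted p = 0.389; over 22 alternatives, 0.209 to 1.00). Iglc2 and Iglc3 are near-identical copies, so reads could be split between them and each value is uncertain. Of 1440 healthy B cell UMIs of Iglc2, 254 were in 1 cell of H7. Igkc, the kappa constant region, stood at 8098, 10551, 3814 and 6055 CPM in healthy and 3311 to 12380 CPM in CIA, median 4502. Ighm, which encodes IgM, stood at 2288, 3545, 1239 and 2307 CPM and 1367 to 3641 CPM, median 1636. The joining segment Igkj1 stood at 656 to 1957 and 141 to 840 CPM, with a log2 fold change of -1.57 (SE 0.44, edgeR adjusted p = 0.389).

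The 4 shares that describe antibody class did not pass the test over mice. IgD made up 9.52%, 17.5%, 22.7% and 8.33% of IgM and IgD constant UMIs in H3, H4, H6 and H7 and 7.41% to 32.9% in CIA, a difference of means of 5.29 points (exact permutation p = 0.333). Switched classes (IgG, IgA and IgE) made up 8.70%, 3.50%, 7.04% and 22.6% of heavy chain constant UMIs in healthy and 0% to 14.0% in CIA, a difference of -4.36 points (exact p = 0.362), and S3 had 0 of 54 such UMIs, which allows up to 5.56%. Lambda made up 48.8%, 29.6%, 56.5% and 58.6% of light chain constant UMIs in healthy and 25.4% to 52.4% in CIA, a difference of -4.34 points (exact p = 0.590). With UMIs pooled over mice it was 39.9% in healthy and 46.6% in CIA, the other way round. Adjusted p-values over the 5 shares were 0.603 to 0.857, and within the experiment CIA the differences were 1.88, -2.16 and -0.45 points with exact p-values of 0.8, 0.9 and 1. Ighg1, the IgG1 constant region, had 20 UMIs in all B cells, at 250 CPM in S6 and at most 34.8 CPM in the other mice.

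The lambda share depended on the part of the transcript. Of light chain variable segment UMIs in B cells, 423 were lambda and 2167 kappa, or 16.3% lambda, against 42.7% of constant region UMIs. Without the immunoglobulin-rich cells described below, the shares were 11.5% and 48.9%. In the other spleen cells the 2 shares were 23.1% and 23.3%. Of 934 B cells with at least 3 light chain constant UMIs, 813 had both kappa and lambda, 68 kappa alone and 53 lambda alone, although a mature B cell as a rule makes one kind of light chain. Of the 813 cells, 523 lay between 25% and 75% lambda. The part of RNA from other cells in this mixture was not tested.

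Immunoglobulin-rich cells, defined here as B cells with at least 10% of their UMIs on immunoglobulin genes or Jchain, numbered 15, of which 11 were in healthy and 4 in CIA mice. Their load was 11.6% to 56.3%, and the highest cell below the limit had 8.71%. They were 2 of 61, 6 of 275, 0 of 62 and 3 of 122 B cells in H3, H4, H6 and H7, and 0 of 118, 0 of 127, 2 of 24, 1 of 161, 0 of 75 and 1 of 157 in S1, S2, S3, S5, S6 and S8. The means over mice were 1.98% ± 1.40 (SD, n = 4) and 1.60% ± 3.31 (SD, n = 6; exact permutation p = 0.857). The CIA mean rested on S3, and without S3 the difference was -1.73 points (exact p = 0.0952). Without H3 it was 0.0516 points. A count of 0 allows up to 2.36% in S2 and 4.84% in H6.

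The limit counted immunoglobulin UMIs as a sum and did not set how they divide among genes. The features that follow come from the same UMIs and are given as a description only. In each of the 15 cells, more than 50% of the light chain variable UMIs came from 1 gene, and 13 different genes led them. In the richest cell, from H4, 186 of 193 such UMIs were Igkv6-20, and in a cell of H7, 184 of 189 were Iglv2. IgM exceeded switched classes in 13 cells and fell below them in 1. The 15 cells held 29.2% of all immunoglobulin UMIs of B cells. Jchain, which was part of the limit, stood at 1264, 1668, 170 and 1442 CPM in H3, H4, H6 and H7 and at 46.3 to 2840 CPM in CIA, and the highest value was that of S3, from 2 such cells. Of the 12 plasma cell genes, 5 were tested, with a median log2 fold change of -0.47. At an unadjusted p under 0.05, 1 was lower and none higher (over all genes 2.16% and 1.04%). That gene was Sec11c, a subunit of the signal peptidase (185 to 406 CPM in healthy, 0 to 216 in CIA, log2 fold change -0.94, SE 0.41, edgeR adjusted p = 0.999). Sdc1 (CD138) had 1 UMI and Prdm1, the plasma cell factor Blimp-1, had 4. Most immunoglobulin-rich cells of the spleen carried other labels: of 100 in all, 67 were labelled monocytes, 41 of 172 monocytes in healthy and 26 of 356 in CIA. The B cell label therefore held few of the cells with such a load.

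**Figure D5:**
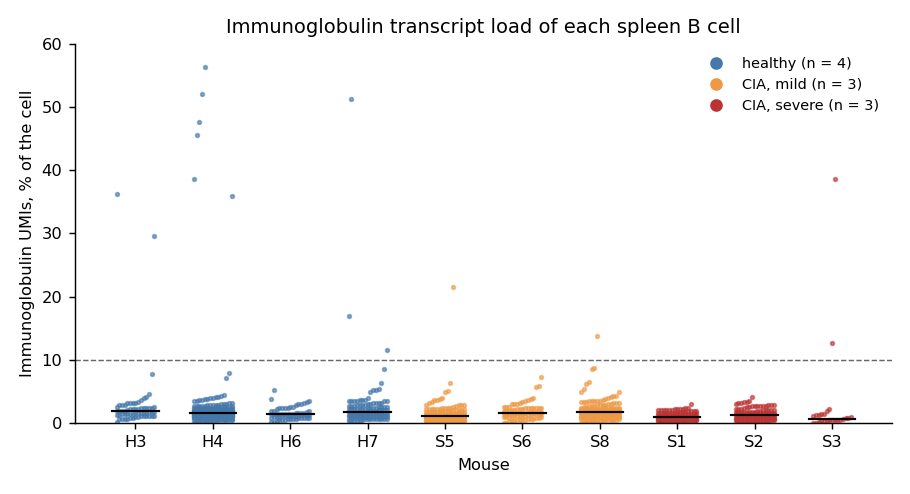
Immunoglobulin UMIs as a percent of all UMIs in each of the 1182 spleen B cells (points) by mouse, with the median of the mouse (line) and the 10% limit (dashed). Above the limit lie 11 cells of 3 healthy mice and 4 cells of 3 CIA mice, and the highest holds 56.3%.

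Severe and mild arthritis were compared in one edgeR fit with the healthy mice. Of 1486 genes, 2 had an adjusted p under 0.05 (0.135%), S100a8 and S100a9, and both were higher in severe mice. S100a8 stood at 6394 to 16458 CPM in severe and 1533 to 2181 CPM in mild mice (log2 fold change 2.43, SE 0.35, edgeR adjusted p = 0.00245). S100a9 stood at 2259 to 5243 CPM and 341 to 733 CPM (2.59, SE 0.45, edgeR adjusted p = 0.0164). In healthy B cells they stood at 559 to 1009 and 241 to 639 CPM. Both mark granulocytes, and the granulocyte list of the other spleen cells stood at 93934 to 147820 CPM in severe and 29636 to 50354 CPM in mild mice. The count of called genes was 0 without S8, 1 without S3, S5 or S6 in turn, 6 without H6 and 76 without H4, the deepest library.

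At an unadjusted p under 0.05, 50 genes were higher (3.36%) and 148 lower (9.96%) in severe mice. Of the 148, 118 were processed pseudogenes, which made up 340 of the genes tested and had a median log2 difference of -1.18 beside 0.06 over all genes. Pseudogenes share reads with their parent genes, so these values are uncertain. Their share of B cell UMIs was 5.01% in H4, 10.7% in H3 and 8.26% to 15.8% in the severe mice, and 17.0% to 22.7% in H6, H7 and the mild mice. The other cells of the same spleens held 4.48% in H4, 10.0% in H3, 4.79% to 12.5% in the severe mice and 13.6% to 19.2% in the rest. The share thus differed between libraries of healthy mice as well, and its part in the severe against mild comparison was not tested. Among B cell lists, the identity genes had a median of 0.43 (1 of 13 higher, 0 lower), the MHC class II genes 0.46 (0 of 11) and the early activation genes 0.52 (3 of 20 higher, 0 lower) at an unadjusted p under 0.05. The 4 interferon genes tested had a median of 0.70, with none at that level. Erythroid markers, a measure of residual red cells, summed to 10050 to 58546 CPM in severe and 6419 to 10728 CPM in mild B cells.

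A last comparison asked whether the CIA effect in B cells differed from that in all other annotated cells of the same spleens, with the mouse as a block. Of 1834 genes, 4 had an adjusted p under 0.05 by edgeR (0.218%), all immunoglobulin genes, and in each the CIA effect was more positive in B cells. Unadjusted p-values were under 0.05 for 47 genes in this direction (2.56%) and 73 in the other (3.98%). Of 27 immunoglobulin genes tested, 12 were in the first set and 1 in the second. Iglc2 stood at 2964 to 6750 CPM in healthy and 1713 to 3512 CPM in CIA B cells, and at 1256 to 6779 and 456 to 900 CPM in the other cells (log2 difference of effects 1.34, SE 0.26, edgeR adjusted p = 0.0210). The CIA level relative to healthy was thus lower in the summed other cells than in B cells. That sum is a mixture whose make-up differed between the groups. Dendritic cells numbered 29 in healthy and 342 in CIA mice, granulocytes 12 and 233, and monocytes 172 and 356. Of the monocytes, 41 in healthy and 26 in CIA mice were immunoglobulin-rich. The part of this make-up in the differences of effects was not tested. The 3 variable segments were Igkv1-135 (4.82, SE 0.56, adjusted p = 1.79e-05), Igkv6-15 (5.74, SE 0.98, adjusted p = 0.00561) and Iglv2 (2.52, SE 0.51, adjusted p = 0.0219). They rested on few cells. In healthy other cells, Igkv1-135 had 474 UMIs in 18 cells with 189 in 1 cell of H7, and Iglv2 had 311 UMIs with 260 in 1 cell of H7, while 184 of 209 healthy B cell UMIs of Iglv2 were in 1 cell. The constant region list summed to 29048 to 41260 CPM in healthy and 5426 to 18017 CPM in CIA other cells. For Iglc2, 368 of 1435 UMIs in healthy other cells were in 1 cell of H4. Without the mouse as a block 1 gene was called, and without H7 or S8 in turn 2. Iglc2 was not among the genes called without H4, H7 or S8 in turn.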

How the data were processed

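The authors deposited 1 table of UMI counts per gene and cell and an annotation of cells. They had processed the reads with the Drop-seq tools and STAR on GRCm38, removed cells of low depth, high mitochondrial share or a transcript number that may mark doublets, and assigned cell types by correlation with reference expression profiles. No doublet caller was run here. Fold changes and tests published by the authors were not used.

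For this report the deposited counts of annotated spleen B cells were summed per mouse, all 10 mice having at least 10 such cells. Sums were tested with edgeR (4.0.16) quasi-likelihood tests in R 4.3.3, with TMM scaling for composition, the default filter on low counts and Benjamini-Hochberg adjustment over all genes tested, at a threshold of 0.05. DESeq2 (1.42.0) and limma (3.58.1, on means over cells of log2 of CPM plus 1) were alternatives, and other scalings, filters, sets of cells and left-out mice were tried. Severe against mild mice were tested in the same model with 3 levels, and the difference of the CIA effect between B cells and other spleen cells with the mouse as a block. For shares, the difference of the group means over mice was given a two-sided p by exact permutation of the mice. Thinning drew 400 UMIs from each cell without replacement. Intervals are exact Clopper-Pearson 95% intervals, and these and the floors of 3 counts cover counting error only. Each mouse gave 1 spleen library. The fits were tested on simulated counts. Gene positions are from GENCODE vM21 on GRCm38. Tables were made with Python 3.11.15, numpy 2.4.6, pandas 2.3.3, scipy 1.17.1 and matplotlib 3.10.9.

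The B cells and the 23 gene lists were chosen with earlier results of these data known. Genes named with a fold change were the 3 markers, the 10 genes with the smallest p in each direction, the list genes with an unadjusted p under 0.05, and the genes with the smallest p in the other comparisons. For the other lists of B cell genes the 3 genes with the highest level were eligible. Genes outside this rule that the text names, such as Irf7, Bcl6, Sdc1, Prdm1, Ighg1 and the genes with promoter windows, were chosen after their values were seen.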

Additional observations from a re-analysis of the deposited data

Results flagged for a closer look

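S3, the CIA mouse with 24 B cells, stood apart from the other CIA mice in 2 shares. Its immunoglobulin-rich share was 8.33%, where the others had 0% to 0.637%, and its lambda share was 25.4%, where the others had 43.0% to 52.4%. Single mice also stood apart in the level of 5 genes. Ngp was at 19.5 CPM in H4, whose B cells held 205093 UMIs. It was at 0 in the other healthy mice, whose B cells held only 33218 to 76302 UMIs. Trim30a was at 266 CPM in S8 and at 72.8 to 143 CPM in the other CIA mice. The small nucleolar RNA Gm24949 was at 298 CPM in S8 and at 107 to 177 CPM in the others. The small nuclear RNA Gm24407 was at 364 CPM in S3, whose B cells held only 13732 UMIs, and at 74.5 to 141 CPM in the others. Jun was at 1560 CPM in S1 and at 483 to 788 CPM in the others. A mouse was singled out where its gap to the nearest other mouse, divided by the range of its group, was above Dixon's 95% critical value, which chance passes in about 1 in 20 groups. Of 66 groups of mice, 7 had such a mouse.

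The edgeR fit with the mouse as a block called a different CIA effect in B cells and the other spleen cells for 4 immunoglobulin genes. The log2 difference was 4.82 for Igkv1-135, 5.74 for Igkv6-15, 1.34 for Iglc2 and 2.52 for Iglv2. Without that block Igkv1-135 alone was called, and Iglc2 was not called without H4, H7 or S8 in turn. In healthy mice, 260 of 311 Iglv2 UMIs of the other cells were in 1 cell of H7. Of the 209 Iglv2 UMIs of healthy B cells, 184 were in 1 cell of H7. The other cells are a mixture whose make-up differed between the groups.

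Spleen cells without a label were not part of any comparison. Of 396 such cells, 131 (33.1%) had a UMI of Ms4a1, Cd22 or Cd79a at a median depth of 462.5 UMIs, beside 63.0% of B cells at 587.5 UMIs, 28.5% of T cells at 793 UMIs and 23.7% of all other annotated cells at 729 UMIs. The 3 markers together stood at 987 CPM in the cells without a label, at 2002 CPM in B cells and at 376 CPM in the other annotated cells.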

How the results depend on the processing

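For CIA against healthy, the count of called genes was 0. It was 4 with DESeq2, 2 with limma and 2 in B cells with a B cell marker UMI. With every gene kept it was 15, of which 9 were immunoglobulin genes, all lower. Of the variable segments called, Igkv1-99 had 133 UMIs, Igkv3-4 161, Igkv4-50 79 and Igkv6-20 186 in single cells of H4. Iglv2 had 184 of 209 healthy B cell UMIs in 1 cell of H7. Leaving out 1 mouse gave 0 to 4, with 1 without S1 (Snord118) and 4 without S8. For severe against mild arthritis the count of 2 became 8 with every gene kept and 0 to 76 without 1 mouse, with 76 without H4, 6 without H6, 1 without S3, S5 or S6 and 0 without S8. For the difference between B cells and other cells the count of 4 became 24 with every gene kept, 1 with no replicate block, and 2 to 7 without 1 mouse, with 7 without H4 or S6 and 2 without H7 or S8. The difference in immunoglobulin-rich share ran from -1.73 to 0.0516 points without 1 mouse, and 0.0516 came without H3. The lambda difference was 6.75 points with UMIs pooled over mice. The cause of these shifts was not tested. The log2 fold change of Ms4a1 turned to 0.00135 with plain library sizes, to 0.0461 with every gene kept and to 0.16, 0.13 and 0.07 without H4, S3 and S5, over a range of -0.26 to 0.16 without 1 mouse. That of Cd22 turned to -0.000205 without immunoglobulin genes, -0.0257 without immunoglobulin-rich cells, -0.22, -0.11 and -0.21 without H3, H6 and S1 (highest without 1 mouse 0.26), -0.45 in the experiment CIA alone and -0.15 with limma. That of Cd79a turned to 0.000393 without H4 and was lowest, at -0.39, without H7. Of 71 named genes, 24 changed sign in at least 1 of 23 alternatives. Mouse numbers mark different animals, and the same-numbered pairs H3 with S3 and H6 with S6 had correlations of deviations of -0.03 and 0.35. With the mouse number as a replicate block 0 genes were called for CIA, 65 at an unadjusted p under 0.05. B cells without a UMI of T cell, granulocyte, monocyte or erythroid markers were too few in CIA mice, so that this alternative was not run. The sets without immunoglobulin-rich cells, with a marker UMI and without shared barcodes were chosen after seeing the data. Depth limits the sparse lists, and S3 has few UMIs.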

Other observations

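Other cell types' markers in the summed B cells were measured as lists. The 13 T cell markers summed to 316 to 695 CPM in healthy and 185 to 510 CPM in CIA B cells, and Trbc2, a T cell receptor constant region, was the 1 gene tested (log2 fold change -1.56, SE 0.45, edgeR adjusted p = 0.389). The 7 NK cell markers summed to 72.9 to 211 and 11.6 to 143 CPM, and none was tested. The 12 monocyte and macrophage markers summed to 292 to 783 and 287 to 1090 CPM, and the 9 dendritic cell markers to 52.4 to 156 and 49.2 to 291 CPM. The 11 erythroid markers summed to 729 to 35192 CPM in healthy and 6419 to 58546 CPM in CIA, with 3 tested and a median log2 fold change of 0.64. The ranges of all 5 lists overlapped between the groups. Their part in the B cell values was not tested.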
